A study of Mus musculus with 6 samples.

Results

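The miR-106a-363 cluster is the X-linked paralog of the miR-17-92 cluster. On the array, 4 probes target strands that are made from it and not from its relatives: mmu-miR-106a, mmu-miR-18b, mmu-miR-20b and mmu-miR-363, written below without the species prefix. They were taken by name from the 599 mouse miRNA probes of the array, and all 4 were found in the spot files and in the deposited series table. The cells were arteriolar smooth muscle cells (aSMCs) of mouse kidney that descend from the renin lineage, 1 primary line of mixed 129Sv/C57Bl6 strain at passage 7, treated when about 80% confluent. The 3 forskolin cultures received 10 µM forskolin, which activates adenylyl cyclase, and 100 µM IBMX, which blocks the breakdown of cyclic AMP, for 24 h, and then 10 µM forskolin again during the last 30 min. The 3 control cultures were left untreated, and no vehicle is named. Each culture was grown and harvested on its own, and its RNA was stained with 1 dye. The forskolin samples carried Cy5, Cy3 and Cy5 for replicates 1, 2 and 3, and the control samples Cy3, Cy5 and Cy3.

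Clusters of the miR-17 type are transcribed as 1 primary RNA that is cut into several hairpins, each of which can give a mature miRNA. miR-17-92 is known to be activated by MYC and E2F factors in dividing cells and to restrain inhibitors of the cell cycle and promoters of apoptosis, such as Cdkn1a and Bcl2l11. The miR-106a-363 cluster arose from the same ancestor and is known as a site of retroviral insertion in mouse T-cell tumours, while its expression in most adult tissues is low. A miRNA finds its targets mainly through its seed, bases 2 to 8, so paralogs with the same seed are thought to share many targets.

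The target sequences of the 4 probes are shown because the reading of every value below turns on how little they differ from their relatives. All 4 are identical to a RefSeq mature miRNA (GRCm38.p6), and the seed is in capitals.
miR-106a: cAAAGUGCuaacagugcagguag
miR-18b: uAAGGUGCaucuagugcuguuag
miR-20b: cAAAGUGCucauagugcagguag
miR-363: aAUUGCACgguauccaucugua
Strands of miR-17-92, on chromosome 14, that share these seeds are set beside them. miR-92a shares the seed of miR-363 but is also made on the X chromosome, from a hairpin of its own.
miR-17: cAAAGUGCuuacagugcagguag
miR-18a: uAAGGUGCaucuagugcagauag
miR-20a: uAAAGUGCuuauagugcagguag
miR-92a: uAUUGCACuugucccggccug

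Positions are counted from 1 at the 5′ end, with the base of the relative first and that of the member last. miR-106a differs from miR-17 by 1 substitution, U10A. miR-20b differs from miR-20a by 2, U1C and U10C, and from miR-106a also by 2, A10C and C12U. miR-18b differs from miR-18a by A18U and A20U. miR-363 stands farther from miR-92a, with 11 mismatches over the 21 bases compared, all of them outside the seed. Its closest target on the array was miR-367, with 8. None of these differences falls in the seed, which the array holds 6 times as AAAGUGC, 2 times as AAGGUGC and 6 times as AUUGCAC. How far the probes separate targets that differ by 1 or 2 bases was not tested. The values of miR-106a, miR-18b and miR-20b below are those of their probes, and may include signal from the chromosome 14 relatives.

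RefSeq places the 6 hairpins of the cluster on the minus strand, within 875 bases at chrX:52741693-52742567. In the direction of transcription they are Mir106a, Mir18b, Mir20b, Mir19b-2, Mir92-2 and Mir363. The long noncoding RNA gene Kis2 lies at chrX:52742563-52744593 and overlaps the first of them. The mature miR-106a is encoded at chrX:52742541-52742563, miR-18b at chrX:52742381-52742403, miR-20b at chrX:52742159-52742181 and miR-363 at chrX:52741697-52741718. Mir19b-2 and Mir92-2 give the same mature miR-19b and miR-92a as the chromosome 14 cluster, so those probes read both loci. The array's miR-92a* probe matches the strand opposite miR-92a in Mir92-2 and not that in the chromosome 14 hairpin. This makes it, with miR-20b*, a second kind of reading from the X chromosome. Its target is shown for that reason.
miR-92a*: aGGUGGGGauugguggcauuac

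Each probe was spotted 5 times, beside 669 empty spots. The empty spots averaged 32.61, 192.1 and 34.93 in forskolin samples 1 to 3 and 131.2, 31.63 and 200.1 in control samples 1 to 3, the higher values being those of Cy3. The detection threshold of a sample was the mean of its empty spots plus 3 of their SDs, and the 5 spots of a probe had to average more than that. This held for 175, 585 and 197 probes in the forskolin samples and for 162, 166 and 225 in the control samples. The 585, or 97.7% of all probes, in forskolin sample 2 mean that detection there separates little. Control sample 2 was dim. Its probes detected in all 6 samples had a median of 134.4 over the empty spots, against 504.4 to 1322 in the other 5 samples. Of the marker lists, both smooth muscle miRNAs, miR-143 and miR-145, were detected in all 6 samples. Of the markers of other cells, 2 of 7 for kidney epithelium (miR-192 and miR-194), 1 of 5 for striated muscle (miR-206), 0 of 2 for endothelium, 0 of 5 for blood and 0 of 8 for pluripotent cells were detected in all samples of a group.

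Detection split the 4 members into a pair that was read in every sample and a pair at the background. miR-106a and miR-20b, the members with the AAAGUGC seed, were detected in 6 of 6 samples, with all 5 spots above the threshold each time. The miR-106a spots averaged 288.2, 658.8 and 440.2 in forskolin samples 1 to 3 and 1483, 176.5 and 4756 in control samples 1 to 3. They exceeded the empty spots by 56.2, 66.0 and 82.3 SDs in the forskolin samples and by 94.7, 78.3 and 319 SDs in the control samples. For miR-20b the spots averaged 385, 715.1 and 460 in the forskolin samples and 2225, 240.9 and 5427 in the control samples. Its excess was 77.4, 74.0 and 86.3 SDs in the forskolin samples and 147, 113 and 366 SDs in the control samples. In these unscaled intensities control sample 2, the dimmest array, read below every forskolin sample for both probes, while control samples 1 and 3 read above all of them.

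miR-18b, from the hairpin between them, was not well above background. Its 5 spots averaged 35.16, 227.4 and 39.13 in forskolin samples 1 to 3, or 0.562, 4.99 and 0.854 SDs over the empty spots. In control samples 1 to 3 they averaged 151.2, 33.51 and 273.4, or 1.4, 1.01 and 5.13 SDs over. It passed in forskolin sample 2, where nearly all probes did, and in control sample 3, where all 5 of its spots lay above the threshold of 243 and it ranked 185 from the brightest of the 599 probes. miR-363 passed in forskolin sample 2 alone, with 4 of 5 spots over the threshold and a rank of 496. Its excess was -0.00785, 3.86 and 0.164 SDs in the forskolin samples and 0.661, 1.01 and 1.31 SDs in the control samples. Neither was detected in all samples of a group, so no fold change is given for miR-18b or miR-363. In the deposited series table miR-18b read 12, 12 and 12 in the forskolin samples and 13, 8 and 18 in the control samples. miR-363 read 5, 6 and 7 there in the forskolin samples and 11, 7 and 4 in the control samples. Both sets of values sit near that table's column medians of 8 to 11.

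**Figure D1:**
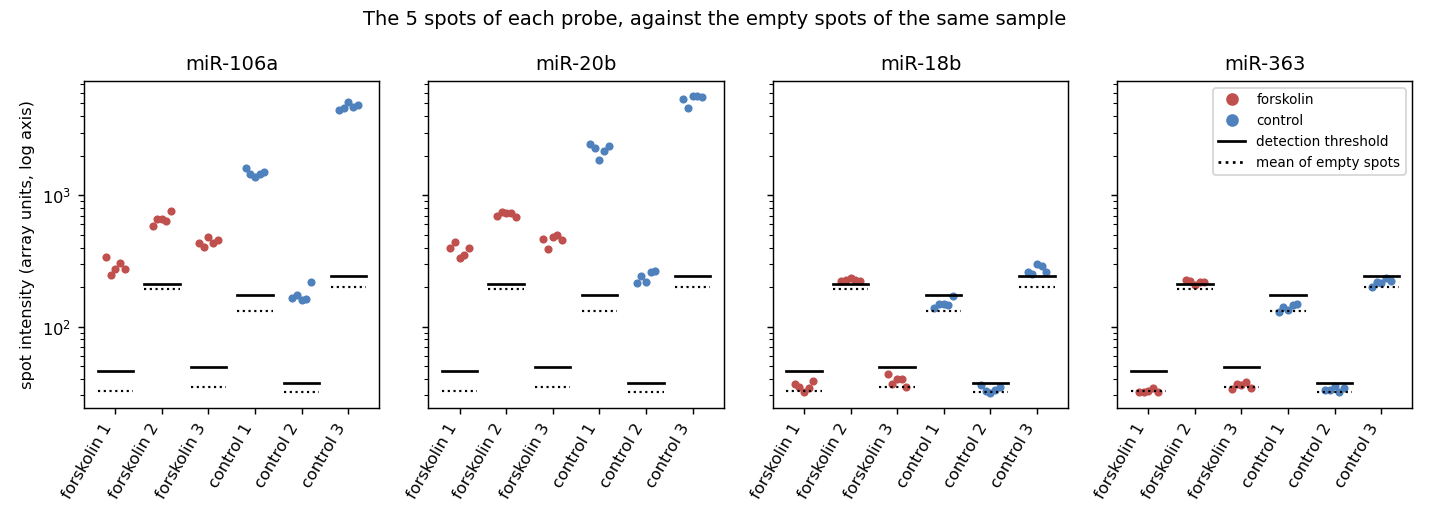
Intensity of each of the 5 spots per probe (array units, log axis) in the 3 forskolin (red) and 3 control (blue) samples, with the mean of the empty spots (dotted) and the detection threshold (solid) of the same sample. All spots of miR-106a and miR-20b lie above the threshold in the 6 samples, while most of those of miR-18b and miR-363 lie below it, near the mean of the empty spots.

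The passenger strands read from this cluster were near the background in most samples. miR-20b*, the passenger strand of miR-20b, was detected in forskolin sample 2 only, at 5.10 SDs over the empty spots. Its other samples lay at 0.161 and 1.01 SDs in forskolin cultures and at 0.910, 0.813 and 1.92 SDs in control cultures. miR-92a* was detected in forskolin sample 2, at 8.52 SDs, and in control sample 2, at 6.76 SDs, the 2 samples of replicate 2. In control sample 2 this rested on 1 of its 5 spots, which read 85.54 while the lowest read 31.72 against a threshold of 37.19. In forskolin sample 2, 4 of 5 spots passed. Its spots had an SD of 0.569 on the log2 scale in forskolin sample 2 and of 0.420 in control sample 2.

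Forskolin and IBMX were set against no treatment to ask which miRNAs differ, and both detected members were lower in the treated cultures. Values from here on are log2 intensities, normalized between samples. A fold change is the treatment term of a limma fit with a term for the dye, over the 167 probes detected in all samples of at least 1 group. miR-20b read 8.99, 8.62 and 8.99 in forskolin samples 1 to 3, against 10.78, 9.95 and 11.21 in control samples 1 to 3. The highest forskolin value lay below the lowest control value. miR-20b averaged 8.86 ± 0.21 in forskolin cultures and 10.65 ± 0.64 in controls (SD, n = 3 each). It fell 3.18-fold (log2 fold change -1.67, SE 0.345), and limma's adjusted p was 0.0425. This was the lowest log2 fold change of the 167 probes. In bulk RNA, a change in each cell and a change in the share of cells that make the miRNA cannot be told apart.

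miR-106a read 8.56, 8.47 and 8.88 in forskolin samples 1 to 3, against 10.06, 9.59 and 11.04 in control samples 1 to 3. Again no forskolin value reached the lowest control value. The means were 8.64 ± 0.22 in forskolin cultures and 10.23 ± 0.74 in controls (SD, n = 3 each). limma put miR-106a at -1.48 on the log2 scale with an SE of 0.383, the fourth lowest, and its adjusted p of 0.0714 misses the threshold of 0.05. So 1 of the 2 tested members was called, where 5.99% of all tested probes passed in either direction and 3.59% as lower. With the replicate number as a block the same fold change had an adjusted p of 3.16e-05, and miR-20b one of 2.74e-06, while 7.19% of tested probes passed as lower and 18% in either direction. That fit leaves 1 residual degree of freedom, and limma gave every probe the same SE of 0.298. Groups with all forskolin values below all control values were seen for both members and for 13.2% of tested probes.

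Pair by pair, both members were lower in forskolin cultures each time. The miR-106a difference was -1.50, -1.13 and -2.15 for replicates 1, 2 and 3, and the miR-20b difference was -1.80, -1.33 and -2.23. Being lower in 3 of 3 pairs was a trait of 25.7% of tested probes. Forskolin carried Cy5 in replicates 1 and 3 and Cy3 in replicate 2, so after normalization the sign was the same in both dye orders. The second order is 1 pair, and it holds control sample 2, the dimmest array. Before normalization this pair read higher with forskolin, at 9.07 against 7.64 for miR-106a and 9.21 against 8.05 for miR-20b. The medians of the tested probes in these samples were then 9.555 and 7.08. After normalization, the sizes within 1 dye were unequal. Among Cy5 samples miR-106a was at 8.72 in 2 forskolin samples and at 9.59 in 1 control sample, a difference of -0.87. Among Cy3 samples it was at 8.47 in 1 forskolin sample and at 10.55 in 2 control samples, a difference of -2.08. The miR-20b differences were -0.96 within Cy5 and -2.38 within Cy3. With a single sample on 1 side, these have no test.

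**Figure D2:**
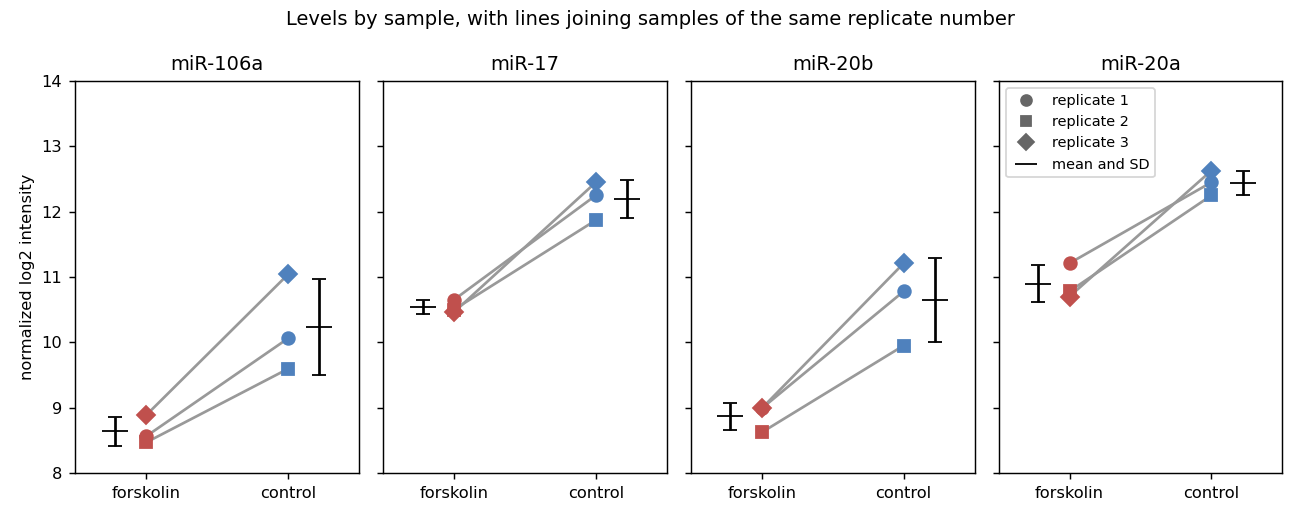
Normalized log2 intensity of miR-106a and miR-20b and of their chromosome 14 counterparts miR-17 and miR-20a, forskolin (red) left of control (blue), with lines joining samples of the same replicate number and black bars for the mean and SD of 3 samples. All lines fall toward forskolin, and the control samples of miR-106a and miR-20b are spread more widely than those of miR-17 and miR-20a.

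The call for miR-20b did not hold when single samples were left out. Its adjusted p was 0.110 without forskolin 1, 0.311 without forskolin 2, 0.0645 without forskolin 3, 0.138 without control 2 and 0.0813 without control 3, with log2 fold changes from -2.40 to -0.98. Without control 1 it was 0.0212, and miR-106a then passed at 0.0286. Leaving out forskolin 2, the only Cy3 sample of its group, moved both members most toward 0, to -0.98 for miR-20b and -0.86 for miR-106a. Without normalization the log2 fold changes were -0.67 for miR-106a and -0.89 for miR-20b, at adjusted p-values of 0.701 and 0.620, while the median of all tested probes was 0.48. Relative to that median they were -1.15 and -1.37.

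The authors' deposited series table gave the same order of samples within the controls. miR-106a had intensities of 274, 295 and 396 in forskolin samples 1 to 3, against 1031, 639 and 2008 in control samples 1 to 3. miR-20b had intensities of 372, 335 and 421 in the forskolin samples, against 1577, 873 and 2444 in the control samples. No forskolin value reached a control value for either probe. On log2 of these values plus 32, normalized as above, miR-20b had a log2 fold change of -1.79 at a limma adjusted p of 0.0299, and miR-106a one of -1.55 at 0.0580. Without that added normalization neither passed, with -1.76 at a limma adjusted p of 0.0621 for miR-20b and -1.53 at 0.129 for miR-106a.

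The control samples differed from each other in these 2 miRNAs more than in most. The control values of miR-106a spanned 1.44 log2 units and those of miR-20b 1.26, with control 3 highest and control 2 lowest in both. Control 2 was also the only Cy5 control and the dimmest array, so culture, dye and array brightness cannot be told apart here. The forskolin values spanned 0.418 and 0.367. Of the 167 tested probes, 6 had a larger control SD than miR-106a and 9 a larger one than miR-20b, and the median control SD was 0.261. In the forskolin group 89 and 91 probes had larger SDs. The 5 spots of a sample had SDs of 0.0767 to 0.171 on the log2 scale for miR-106a and of 0.0663 to 0.156 for miR-20b, which covers noise within an array and not between arrays. miR-19b, which both clusters encode, read 9.87, 8.62 and 10.65 in control samples 1 to 3 and had the same order of controls. Its control SD of 1.02 was exceeded by 1 probe. For miR-17 the control SD was 0.294 and for miR-20a 0.189. Both, though made on chromosome 14, had the same order too, at 12.25, 11.87 and 12.45 and at 12.45, 12.25 and 12.63. So did array brightness, with medians over the empty spots of 830.2, 134.4 and 1322 for probes detected in all 6 samples. miR-18a and miR-92a ran the other way, with control 2 highest and control 3 lowest.

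Profiles over the 6 samples, each centred on its own mean, placed the 2 members next to each other. Such profiles keep the difference between the groups, so nearness in large part restates a change of similar size with forskolin. The root mean squared difference between miR-106a and miR-20b was 0.211 log2 units, the smallest that either had with any of the 166 other probes, against medians of 0.955 and 1.01. Next to miR-106a came miR-17 at 0.319, miR-19b at 0.377, miR-20a at 0.403 and miR-221, a miRNA known from smooth muscle proliferation, at 0.422. Next to miR-20b came miR-17 at 0.241, miR-20a at 0.333, miR-19b at 0.394 and miR-222, the cluster partner of miR-221, at 0.474. The AAAGUGC strands of the Mcm7 intron lay farther off. miR-106b was at 0.810 from miR-106a and miR-93 at 0.840 from miR-20b, places 32 and 29 of 166. The profiles were not sorted by locus throughout. miR-25, of the same cluster as miR-106b, was at 0.692 from miR-106a, nearer than miR-92a at 0.701 and miR-18a at 0.730. From miR-20b, miR-18a was at 0.680, miR-92a at 0.715 and miR-25 at 0.749. The members, miR-17 and miR-20a differ by 1 to 3 bases, and the probes share samples and arrays, so these are not independent measurements.

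The other strands of the paralogous clusters were all lower where they could be tested. Outside the 4 members, the 3 loci had 17 probes, of which 9 were tested. All 9 lay below 0, and their median log2 fold change was -0.95, beside a median of -0.01 over all tested probes, of which 52.1% were negative. Of the 9, 3 fell in limma, where 3.59% of all tested probes did, 5 fell with the replicate block, where 7.19% did, and none rose. miR-17 fell, with 10.65, 10.50 and 10.46 in forskolin samples against 12.25, 11.87 and 12.45 in control samples, a log2 fold change of -1.58 at an adjusted p of 0.0142. miR-20a fell, with 11.21, 10.78 and 10.70 in forskolin samples against 12.45, 12.25 and 12.63 in control samples, a log2 fold change of -1.52 at an adjusted p of 0.0157. miR-92a, the relative of miR-363 that both clusters encode, fell as well, at -1.14 with an adjusted p of 0.0454. miR-18a, the counterpart of miR-18b, had -1.18 at an adjusted p of 0.0807, or 0.00128 with the block. The other shared strand, miR-19b, had -0.95 at 0.341, or 0.0132 with the block, and its groups overlapped. Its pair differences were -1.04, -0.27 and -2.23. With the block every probe had the same SE of 0.298, so the block p-values do not reflect a probe's own spread.

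Sorted by seed, miR-20b had the lowest value of AAAGUGC, and miR-106a came after both chromosome 14 strands. All 6 probes with this seed were tested, and the log2 fold changes were -1.67 for miR-20b, -1.58 for miR-17, -1.52 for miR-20a, -1.48 for miR-106a, -0.73 for miR-93 and -0.53 for miR-106b. The first 4 span less than the SE of any one of them. Of the 6 probes with the miR-363 seed AUUGCAC, 3 were tested: miR-92a, miR-92b at -0.84 and miR-25 at -0.43. miR-32 and miR-367 were, like miR-363, detected in forskolin sample 2 alone. In the miR-106b-25 cluster, which lies in an intron of the replication gene Mcm7, 4 of 5 probes were tested, with log2 fold changes from -0.73 to -0.32, and 0 of them passed in limma with or without the block. None of the 4 had an unadjusted p under 0.05, and miR-93 passed in the fit with the block and no dye term, at an adjusted p of 0.0250.

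**Figure D3:**
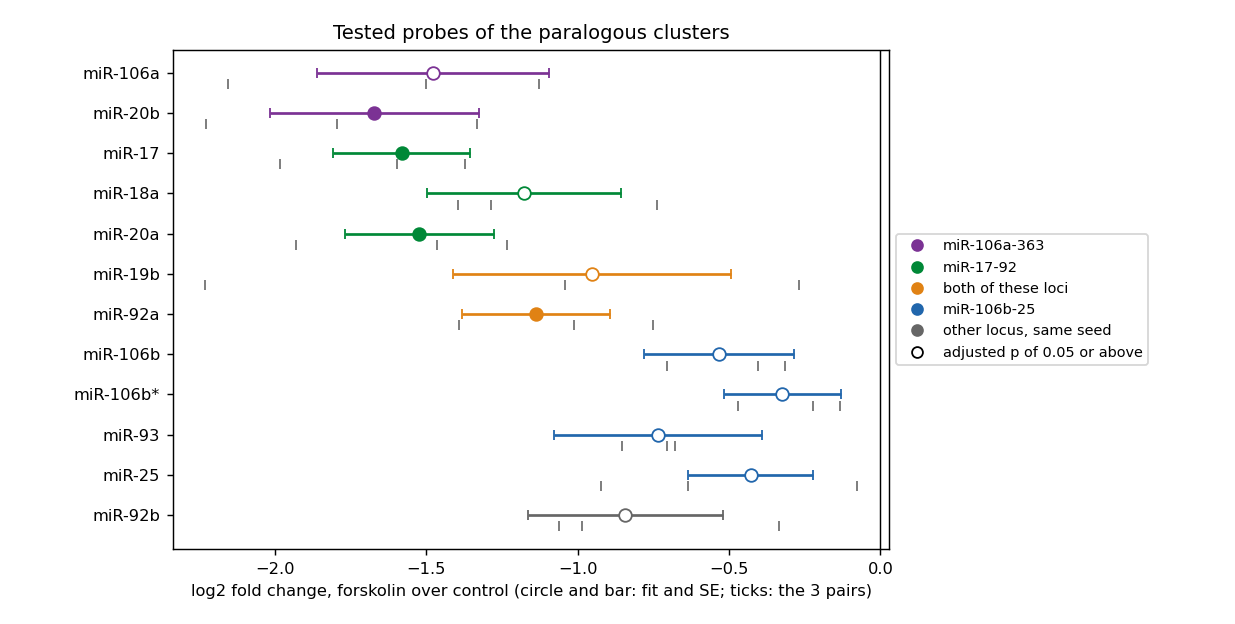
Log2 fold change of forskolin over control for the tested probes of the 3 paralogous clusters and of miR-92b, with the limma fit and its SE (circles and bars) and the differences of the 3 pairs (ticks), coloured by locus and filled where the adjusted p is under 0.05. miR-106a and miR-20b lie beside miR-17 and miR-20a, and the miR-106b-25 strands lie nearer to 0.

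Whether the members changed by another amount than their relatives was tested on the difference of log2 values within each sample, in 4 pairs of probes. With 3 against 3 samples, the exact permutation test cannot go below p = 0.1. miR-106a minus miR-17 was -2.09, -2.03 and -1.58 in forskolin samples against -2.19, -2.27 and -1.41 in control samples. These groups overlap, and their means differed by 0.06 (exact permutation p = 0.8, adjusted over the 4 pairs 0.8). For miR-20b minus miR-20a the values were -2.23, -2.16 and -1.71 in forskolin samples against -1.66, -2.30 and -1.41 in control samples. The difference of means was -0.24 (exact permutation p = 0.6, adjusted 0.8), smaller than the control SD of 0.457. Since this test cannot reach 0.05 with 3 against 3 samples, it leaves unanswered whether the changes were equal.

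Against the Mcm7 strands, a comparison chosen after values were seen, the differences were larger, in a test that could not reach 0.05 at any size. miR-106a minus miR-106b was -1.98, -1.56 and -1.14 in forskolin samples against -0.79, -1.14 and 0.61 in control samples. The groups met at -1.14 without overlapping, and the means differed by -1.12 (exact permutation p = 0.1, adjusted 0.4). miR-20b minus miR-93 was -1.09, -1.46 and -0.40 in forskolin samples against -0.15, -0.83 and 1.15 in control samples. These overlapped, with a difference of means of -1.04 (exact permutation p = 0.2, adjusted 0.4). Both differences were below 0 in 3 of 3 pairs. Without control 3, which read highest, they were -0.57 and -0.47. The 5 spots of miR-93 were uneven, with log2 SDs of 0.652 in forskolin sample 3 and 0.891 in control sample 3. With the median of the 5 spots, the difference for miR-20b minus miR-93 was -1.09.

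**Figure D4:**
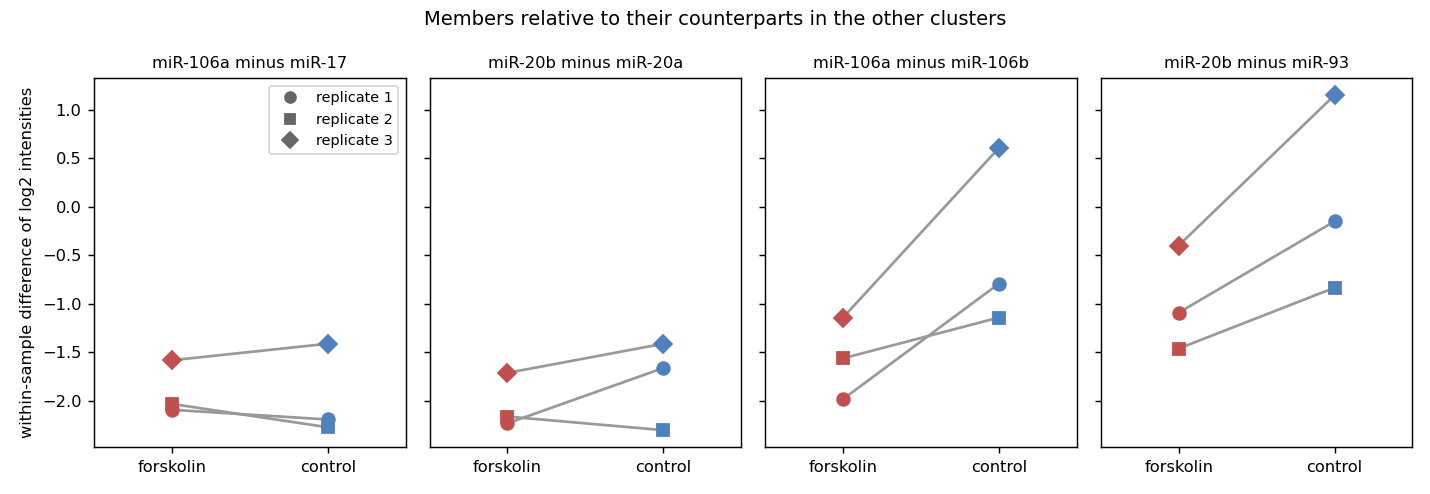
Within-sample difference of log2 intensity between a member and a counterpart, forskolin (red) left of control (blue), with lines joining samples of the same replicate number. Toward control the lines run in both directions for the chromosome 14 counterparts miR-17 and miR-20a, and upward in all 3 pairs for miR-106b and miR-93. Only the change along a line is comparable, since different probes have different brightness.

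**Figure D5:**
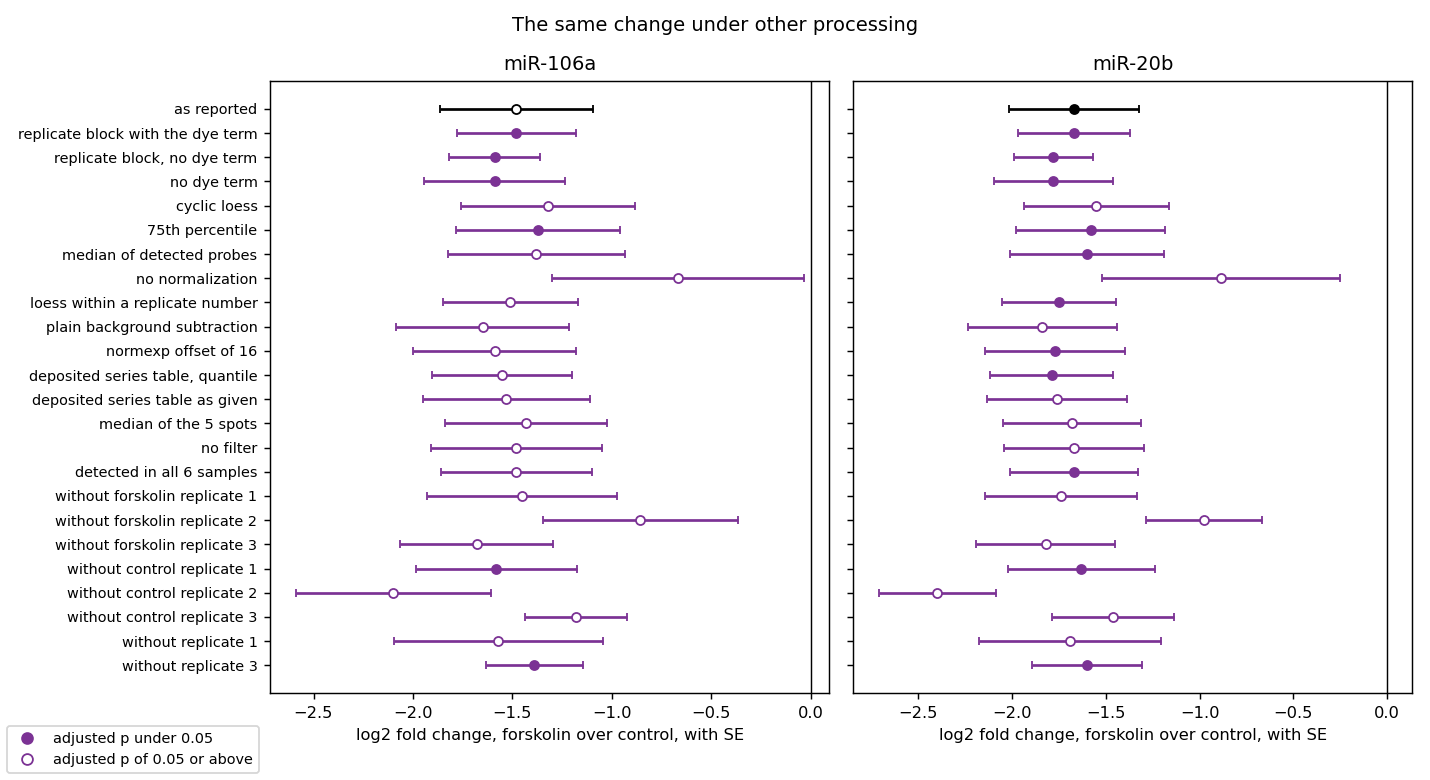
Log2 fold change of forskolin over control for miR-106a and miR-20b, with its SE, as reported (black) and under 23 alternatives each (purple), filled where the limma adjusted p is under 0.05. All values are below 0, and they lie nearest to 0 without normalization and without forskolin replicate 2.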

How the data were processed

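The 6 samples were grouped by their titles. Per the labels, RNA was size-selected, tailed, tagged and stained with Cy3 or Cy5 by a service provider. The spot files hold 1 mean intensity per spot, per the file headers. Empty spots read well above 0, so background was taken as not yet removed. The deposited series table holds intensity values in whole numbers. The labels do not state its background removal or scaling, which stay unknown here. It served as an alternative.

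After normexp correction with an offset of 50, each probe was given the mean of its 5 spots. Quantile normalization on the log2 scale then used all 599 probes. limma 3.58.1 in R 4.3.3 fitted treatment and dye to 167 probes, with Benjamini-Hochberg adjustment over all of them. Fold changes understate changes of dim probes, and the number of arrays limits precision.

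Deviations from the group means correlated between samples of the same replicate number, at 0.397, 0.473 and 0.359 for numbers 1 to 3. Samples of different numbers were at 0.000706 or below. Deviations within a group sum to 0, so matched values above 0 push the unmatched ones lower, and the unmatched values are no separate evidence of pairing. The labels do not state a pairing, and the numbers were taken to pair the samples. The members, lists and tests were chosen with earlier results of these data known. Named probes are the members, the strands of the 3 paralogous clusters, probes sharing a member's seed, and the 5 closest profiles of each tested member. Differences from miR-106b and miR-93 were added after values were seen.

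On 20 simulated sets of the forskolin against control comparison, 63.2% of 2-fold and 93.2% of 4-fold changes among 167 probes were called, with 2.55 false calls per set. In these sets the median log2 fold change fitted to a 4-fold change was 1.55. Every simulated probe had an SD of 0.3 between samples on the log2 scale, with no dye or pair effect of its own. The control SDs of miR-106a and miR-20b were larger, at 0.736 and 0.642, so these rates do not carry over to the members.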

Additional observations from a re-analysis of the deposited data

How the results depend on the processing

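Both detected members stayed below 0 in 23 of 23 alternatives, from -2.10 to -0.67 for miR-106a and from -2.40 to -0.89 for miR-20b. miR-20b passed in 11, and miR-106a in 6. miR-20b missed the threshold with cyclic loess (-1.55), no normalization (-0.89), plain background subtraction (-1.84), the deposited series table as given (-1.76), the median of the 5 spots (-1.68) and no filter (-1.67, with 599 probes tested). miR-106a passed with the replicate block (-1.48), with the block and no dye term (-1.59), with no dye term (-1.59) and at the 75th percentile (-1.37). Leaving out samples or pairs gave -2.10 to -0.86 for miR-106a and -2.40 to -0.98 for miR-20b. The pairing changed no other call on a member. The median of all tested probes shifted to -0.22 at the 75th percentile and -0.24 with the median of detected probes, relative to which the members were at -1.15 and -1.14 (miR-106a) and -1.36 and -1.36 (miR-20b).

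The count of 10 probes past the threshold was 30 with the block, 24 with the block and no dye term, 18 with no dye term, 5 without normalization, 0 with plain subtraction (32 at an unadjusted p under 0.05 in limma), 5 with the median of spots and 1 with no filter, and 0 to 27 without samples or pairs (20 and 21 at an unadjusted p under 0.05 without control 2 and forskolin 2, and 25 without replicate 1). The split of higher against lower calls was 4 and 6, but 18 and 12 with the replicate block and dye term, 15 and 12 without replicate 3, 4 and 2 without forskolin 3, 7 and 5 at the 75th percentile, 5 and 0 without normalization, 4 and 3 with the deposited table as given, 3 and 2 with the median of spots and 1 and 0 with no filter. A fit without replicate 2 could not be made, since treatment and dye then coincide.

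The difference of miR-106a minus miR-17, 0.06 as reported, turned to -0.156 at the 75th percentile, with the median of detected probes and with no normalization, to -0.0385 with loess within a replicate number, -0.198 with plain subtraction, -0.0243 with an offset of 16, -0.0171 and -0.0689 with the deposited table with and without quantile normalization, and -0.0126 with the median of spots, and ran from -0.207 to 0.438 without single samples. That of miR-20b minus miR-20a ran from -0.591 to 0.0724 without single samples. The causes were not tested. Differences over pairs by sign changes had p-values of 0.25 to 0.75 in an exact test that allows no less than 0.25. With background from the dimmest probes in place of the empty spots, 3 of 4 members were detected in all samples of a group, miR-18b among them, and miR-363 in none. Fold changes of miR-18b and miR-363 are not given, and their differences from miR-18a and miR-92a were not tested. Neither probe passed the empty-spot rule in all samples of a group. The differences from miR-106b and miR-93 were chosen after seeing the data and stayed below 0 in all 17 alternatives each. These alternatives reuse the same samples, so the stable sign is no separate support.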
